A study of Mus musculus with 21 samples.

Results

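The 10 genes described here encode transcription regulators of the oocyte: Figla, Nobox, Lhx8, Sohlh1, Sohlh2, Taf4b, Obox1, Obox2, Obox5 and Pou5f1. They were taken by name, and each matched 1 of the 55335 gene identifiers of the deposited tables. RNA was sequenced from oocytes and granulosa cells of the ovaries of female ICR mice, an outbred stock, in 12 oocyte and 9 granulosa cell libraries. Young mice were 6 to 8 weeks old and Aged mice 18 months old, neither with transplanted cells. In the other 3 groups, aged mice of 18 months carried human umbilical cord mesenchymal stem cells injected beneath the ovarian capsule 3 weeks before collection: unsorted cells (Aged + Unsorted), cells sorted for high surface LRP1 (Aged + LRP1high) or cells sorted for low LRP1 (Aged + LRP1low). LRP1, an endocytic lipoprotein receptor, was the sorting marker on the human cells, not a property of the mice. Oocytes were stripped of the zona pellucida with pronase and are labelled as metaphase II oocytes in the series. Granulosa cells were freed from cumulus-oocyte complexes with hyaluronidase, so these libraries stand for cells that had been in contact with oocytes. There were 3 Young, 2 Aged, 2 Aged + Unsorted, 3 Aged + LRP1high and 2 Aged + LRP1low oocyte libraries, and 1, 2, 1, 3 and 2 granulosa cell libraries in the same order. The labels call libraries of a group biological replicates, without naming the animals or the number of cells behind each.

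The early oocyte depends on a small set of regulators. FIGLA is a basic helix-loop-helix (bHLH) protein that binds E-boxes and turns on zona pellucida genes, and SOHLH1 and SOHLH2 are bHLH proteins of germ cells that act upstream of NOBOX and LHX8 when primordial follicles begin to grow. NOBOX and LHX8 are homeobox proteins whose loss in mice stops follicles at an early stage, with Gdf9 and Pou5f1 among the genes that NOBOX controls. TAF4B is a subunit of the general factor TFIID enriched in the gonads. OBOX proteins are homeobox proteins of the oocyte and early embryo encoded by a gene cluster, and POU5F1 (OCT4) is a factor of pluripotent cells that is also made by growing oocytes. Messenger RNA of such genes is stored in the full-grown oocyte, so its level reflects what was made and kept, not current transcription alone.

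Levels are given as FPKM, fragments scaled to gene length and to the fragments of the library, so they can be compared between genes. The depth of a library, computed from coverage and FPKM, was 0.278 to 3.40 gigabases in oocytes and 0.335 to 1.49 gigabases in granulosa cells. A list of 10 oocyte markers (Dppa3, Nlrp5, Ooep, Oosp1, H1foo, Gdf9 and Bmp15, with Zp1, Zp2 and Zp3) checked the labelled cell type. Its median FPKM was 84.9 to 1001 in 8 oocyte libraries but 0.892 in Young 1, 11.6 in Aged 1, and 5.02 and 7.77 in the Aged + LRP1low libraries, and its summed FPKM was 1340 to 14621 in the former and 11.4 to 166 in the latter. These 4 libraries, below a median of 20, are called marker-poor and the other 8 marker-rich. Within them, Zp2 was listed at 0 in Young 1 and Bmp15 in Aged + LRP1low 2. Of 1978 olfactory and vomeronasal receptor genes, which the ovary should not express, 93.8% and 79.3% had an FPKM of at least 1 in the Aged + LRP1low libraries and 57.6% in Aged 1, against 0.253% to 13.1% in the other 9 oocyte libraries. Of the granulosa libraries, Young 1 and Aged + LRP1high 3 had a median FPKM of 74.9 and 21.4 for 10 granulosa and cumulus cell markers, and the other 7 had 0.0482 to 1.93. Granulosa library Aged + LRP1low 1 had a median of 163 for 6 luteal and thecal markers (Star, Cyp11a1, Hsd3b1, Lhcgr, Cyp17a1 and Ptgfr), beside 0.791 for the granulosa markers. The luteal and thecal median was 0.0792 to 30.7 in the other granulosa libraries. Aged + LRP1low 1 was kept as a granulosa library in all comparisons of these cells. The granulosa library of Aged + Unsorted stood apart, with an oocyte marker median of 800 and a granulosa marker median of 0.809, and its log2 values correlated at 0.968 over genes with oocyte library Aged + Unsorted 2, the highest of the 210 pairs of libraries. It goes against its label, and the comparison of cell types is given with and without it. The comparisons between granulosa groups and the interactions were not refitted without it. Since these are bulk samples, fewer cells of a type and less RNA per cell cannot be told apart.

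Obox2 had the highest median FPKM of the 10 genes over the 12 oocyte libraries, at 142, followed by Obox1 at 70.4, Nobox at 57.2, Lhx8 at 51.9 and Obox5 at 38.6. Figla (5.01), Taf4b (4.10), Pou5f1 (2.57) and Sohlh2 (0.942) were lower, and Sohlh1 had a median of 0. Neighbours in this order did not separate beyond the spread between libraries, since each of the 5 highest genes ranged from at most 2.43 to at least 110.1 FPKM. In 7 of the 8 libraries rich in oocyte markers, each of the 5 was above all of the other 5. The upper set was picked by its medians over the 12 oocyte libraries, which include these 8, so this split is a description only. The heat map of all values shows the upper set bright in the marker-rich oocyte libraries and in 1 granulosa column.

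**Figure D1:**
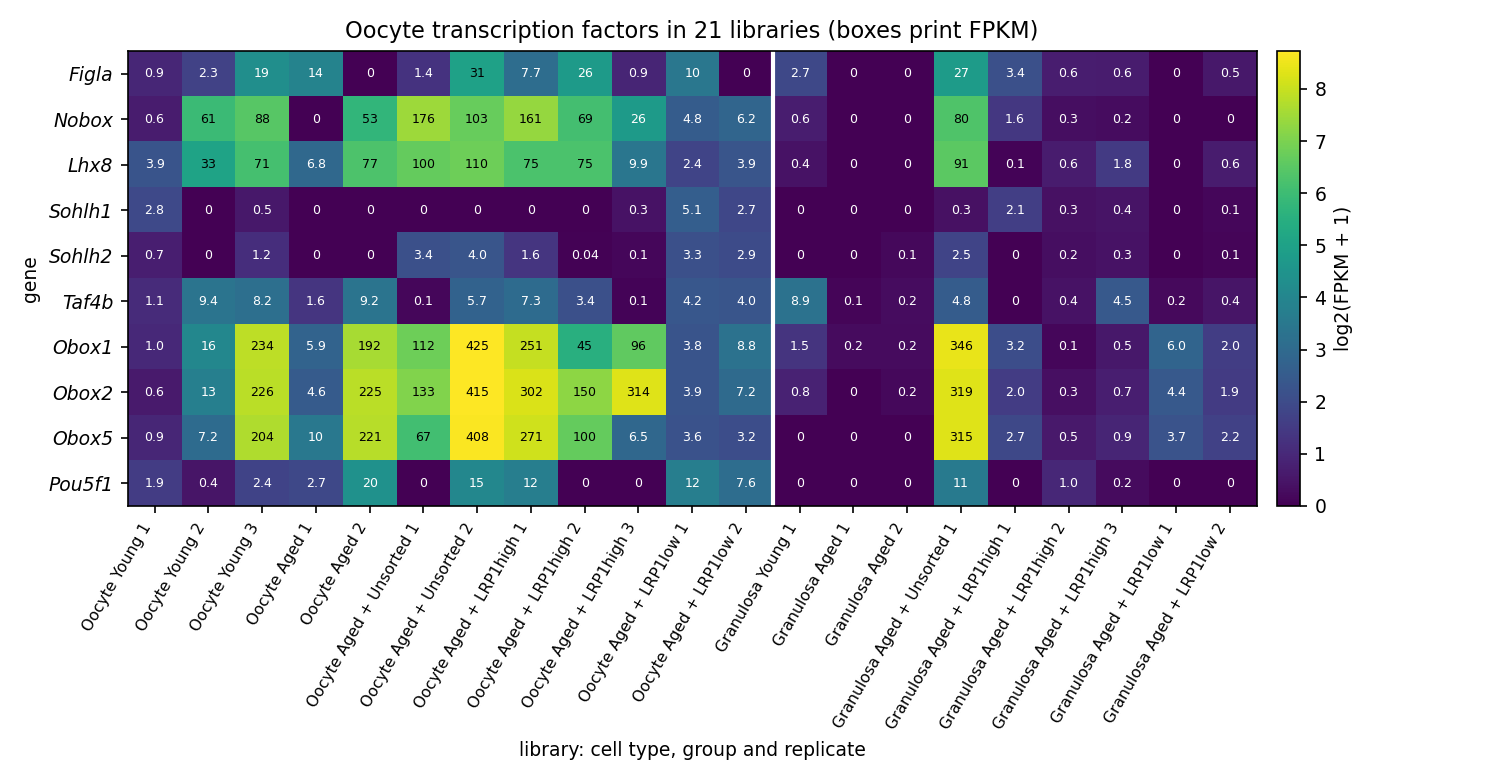
FPKM of the 10 genes (rows) in 12 oocyte and 9 granulosa cell libraries (columns, divided by the white line). Colour is log2(FPKM + 1) and each box prints the FPKM. Nobox, Lhx8, Obox1, Obox2 and Obox5 are highest in the marker-rich oocyte libraries, and the granulosa library of Aged + Unsorted resembles them.

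Nobox (ENSMUSG00000029736.15, GRCm38 chr6:43303674-43309554, minus strand) and Lhx8 (ENSMUSG00000096225.7, GRCm38 chr3:154306294-154330659, minus strand) are the homeobox genes of early folliculogenesis. In Young oocytes Nobox had an FPKM of 0.580, 61.3 and 87.7, and in Aged oocytes of 0 and 53.1. It stood at 176 and 103 in Aged + Unsorted, at 161, 69.3 and 26.3 in Aged + LRP1high, and at 4.83 and 6.21 in Aged + LRP1low. The Aged + Unsorted libraries were thus above all Young and Aged libraries, the Aged + LRP1high libraries overlapped with both, and the Aged + LRP1low libraries lay between the 2 Aged libraries. By mean the order was Aged + Unsorted (139 ± 51.0, SD, n = 2), Aged + LRP1high (85.4 ± 68.7, SD, n = 3), Young (49.9 ± 44.7, SD, n = 3), Aged (26.5 ± 37.5, SD, n = 2) and Aged + LRP1low (5.52 ± 0.974, SD, n = 2), and each mean was within the larger SD of its neighbour in this order.

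Lhx8 had 3.86, 32.7 and 71.0 in Young and 6.80 and 76.9 in Aged oocytes. Its values were 100.4 and 110.1 in Aged + Unsorted, 75.0, 75.1 and 9.87 in Aged + LRP1high, and 2.43 and 3.94 in Aged + LRP1low. Again the Aged + Unsorted libraries were the highest, and those of Aged + LRP1low lay below both Aged libraries. Lhx8 and Nobox rose and fell together, with a Pearson correlation of 0.884 on the log2 scale over the 12 oocyte libraries and of 0.80 over the 8 marker-rich ones. Lhx8 was never at 0 in an oocyte library, while Nobox was listed at 0 in Aged 1. Lhx8 was above the 95th percentile of the olfactory and vomeronasal receptor genes in 9 of these 12 libraries and Nobox in 8. In Aged 1 and both Aged + LRP1low libraries neither gene was above it.

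The bases just before the 2 genes are shown because FIGLA, SOHLH1 and SOHLH2, the bHLH members of the set, bind E-boxes (CANNTG, which reads alike on both strands). The sequences are from RefSeq (GRCm38.p6), run 5′ to 3′ on the strand of the gene, end where the first annotated exon begins, and have E-boxes in capitals.
Nobox, chr6:43309555-43309804, minus strand: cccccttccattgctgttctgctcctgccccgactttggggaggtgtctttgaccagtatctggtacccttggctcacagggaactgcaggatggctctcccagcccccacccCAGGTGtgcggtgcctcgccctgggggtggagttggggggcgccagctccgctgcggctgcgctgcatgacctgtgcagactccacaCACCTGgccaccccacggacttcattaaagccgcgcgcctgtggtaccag
Lhx8, chr3:154330660-154330810, minus strand: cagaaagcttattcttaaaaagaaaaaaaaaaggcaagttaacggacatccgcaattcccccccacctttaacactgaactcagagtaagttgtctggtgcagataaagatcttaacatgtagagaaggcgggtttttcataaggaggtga
Nobox held 2 E-boxes in the 250 bases before its RefSeq start and Lhx8 held 0. Of 32851 mouse promoters of that length, 66.2% held at least 1 E-box and 31.8% at least 2, so both counts are common. The NOBOX element TAATTG, searched on both strands, was in 7.17% of all promoters and in none of the 9 genes of the set that were searched.

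Obox1, Obox2 and Obox5 lie in 1 cluster of homeobox genes on chromosome 7 (GRCm38 chr7:15388948-15556866, chr7:15388721-15398545 and chr7:15750131-15759800, all plus strand). Their transcripts share sequence: of all words of 50 bases in Obox1 transcripts, 56.4% also occur in Obox2, and of those of Obox2 62.7% occur in Obox1, while Obox5 shares 5.14% and 4.26% of its words with them. The annotated Obox1 locus overlaps Obox2 on its own strand and Obox3 on the other. How reads of these genes were divided between copies is not given in the sources used here, so levels of Obox1 and Obox2 in particular are uncertain as single genes. The 3 promoter windows of 300 bases share a run of 82 identical bases, whose first 30 bases are shown because the 3 genes moved together. The run lies after the GENCODE start of each gene, inside the gene coordinates given above (chr7:15547118-15547147 for Obox1, chr7:15388809-15388838 for Obox2 and chr7:15750219-15750248 for Obox5, plus strand, sequence from RefSeq, GRCm38.p6). The RefSeq starts, which set the windows, were not used for this placement.
Obox run: ttttacattctgtcaggaactttcagagca

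Obox2 had an FPKM of 0.557, 12.7 and 226 in Young oocytes and 4.64 and 225 in Aged. After transplantation it stood at 133 and 415 in Aged + Unsorted, at 302, 150.2 and 314 in Aged + LRP1high, and at 3.87 and 7.19 in Aged + LRP1low. All 3 Aged + LRP1high libraries were above both Aged + LRP1low libraries, and Young and Aged each held 1 library near 225 and 1 at 0.557 or 4.64. Obox1 had 1.01, 15.6 and 234 in Young and 5.92 and 192 in Aged oocytes, then 112 and 425 in Aged + Unsorted, 251, 45.0 and 95.8 in Aged + LRP1high, and 3.80 and 8.83 in Aged + LRP1low. Obox5 had 0.924, 7.25 and 204, then 10.3 and 221, 66.8 and 408, 271, 99.9 and 6.50, and 3.61 and 3.20 in the same groups. Each of the 3 genes thus spanned over 2 orders of magnitude between oocyte libraries, with much of that span inside the Young and the Aged group. Obox1 and Obox2 were above the 95th percentile of the receptor genes in 9 of the 12 oocyte libraries, and Obox5 in 8.

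The Obox genes kept close to each other in most libraries. In 5 of the 8 marker-rich oocyte libraries the highest of the 3 was 1.04 to 2.00 times the lowest, and in Young 2 it was 2.15 times. The exceptions were Aged + LRP1high 2, with 3.34 times, and Aged + LRP1high 3, where Obox2 was 48.4 times Obox5 (314 against 6.50). Obox7, another gene of the cluster, reached 141 FPKM in that library and was listed at 0 in Aged + LRP1high 2 and Young 2. Over the 12 oocyte libraries the log2 values correlated at 0.973 for Obox1 with Obox2, 0.898 for Obox1 with Obox5 and 0.845 for Obox2 with Obox5, and over the 8 marker-rich ones at 0.869, 0.777 and 0.599. These are descriptions over libraries that share the transcripts above.

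**Figure D2:**
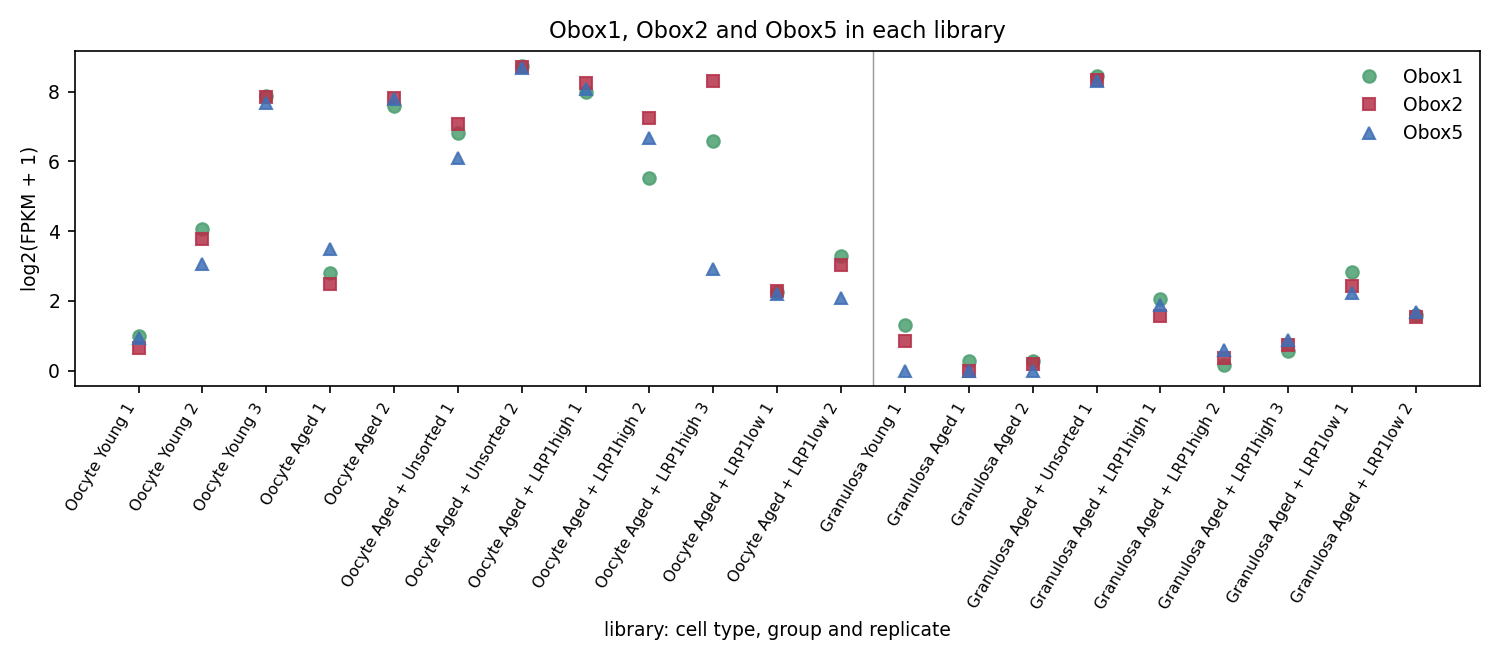
Level of Obox1 (circles), Obox2 (squares) and Obox5 (triangles) as log2(FPKM + 1) in each library, oocytes left and granulosa cells right of the line. The 3 symbols lie close together in most libraries and apart in oocyte library Aged + LRP1high 3, at 95.8, 314 and 6.50 FPKM.

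Figla (ENSMUSG00000030001.4, GRCm38 chr6:86016171-86020996, plus strand) was less closely tied to the other genes. Its FPKM was 0.914, 2.30 and 18.7 in Young and 14.0 and 0 in Aged oocytes, then 1.40 and 31.2 in Aged + Unsorted, 7.71, 26.0 and 0.886 in Aged + LRP1high, and 10.1 and 0 in Aged + LRP1low. High and low values occurred in every group, and it was listed at 0 in Aged 2, a library rich in oocyte markers, while the marker-poor Aged 1 had 14.0. Over the 12 oocyte libraries Figla correlated at 0.157 with Nobox and 0.304 with Lhx8, and its highest correlation within the set was 0.443, with Obox5.

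Sohlh1 (ENSMUSG00000059625.6, GRCm38 chr2:25842995-25847248, minus strand) was listed at 0 in 7 of 12 oocyte libraries, among them both Aged and both Aged + Unsorted libraries. Its 3 values of at least 1 FPKM were 2.79 in Young 1 and 5.11 and 2.66 in the Aged + LRP1low libraries, which are marker-poor, and in the 8 marker-rich libraries it did not exceed 0.468. In each Aged + LRP1low library its level was below the 95th percentile of the olfactory and vomeronasal receptor genes (5.67 and 6.33). The mean over the oocyte libraries, 0.947, was below the minimum of 1 set for testing. Its upstream bases are shown because of their E-boxes, again in capitals (RefSeq, GRCm38.p6, chr2:25847249-25847498, minus strand, 5′ to 3′).
Sohlh1: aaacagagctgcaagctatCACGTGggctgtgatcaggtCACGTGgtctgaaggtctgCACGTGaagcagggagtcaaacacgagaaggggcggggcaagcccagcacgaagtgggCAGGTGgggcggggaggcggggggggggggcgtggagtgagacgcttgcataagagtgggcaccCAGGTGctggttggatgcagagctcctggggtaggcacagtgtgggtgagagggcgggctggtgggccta
They held 5 E-boxes, a count reached by 1.15% of all promoters, and 3 of these were CACGTG, a count reached by 0.0609%. A match of letters is not a binding site, and no binding was measured here.

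Sohlh2 (ENSMUSG00000027794.4, GRCm38 chr3:55182028-55209957, plus strand) was low but separated some groups. It was listed at 0 in both Aged libraries, had 3.41 and 3.96 in Aged + Unsorted, and 3.35 and 2.95 in Aged + LRP1low. In Young it had 0.659, 0 and 1.23, and in Aged + LRP1high 1.57, 0.0373 and 0.105. Both Aged + Unsorted and both Aged + LRP1low libraries were therefore above the other 8. In Aged + Unsorted these values were above the 95th percentile of the receptor genes (0.378 and 0.0925), and in Aged + LRP1low they were below it. In the Aged libraries that percentile was 10.7 and 5.11, above every Sohlh2 value given here, so a 0 there does not show absence.

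Taf4b (ENSMUSG00000054321.7, on chromosome 18, plus strand) varied within groups more than between them. Its FPKM was 1.11, 9.39 and 8.22 in Young and 1.57 and 9.20 in Aged oocytes, then 0.124 and 5.72 in Aged + Unsorted, 7.33, 3.40 and 0.0695 in Aged + LRP1high, and 4.23 and 3.96 in Aged + LRP1low. Each group but Aged + LRP1low held both a low and a high library, and no 2 groups separated. Its locus overlaps 1 processed pseudogene on the same strand.

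Pou5f1 (ENSMUSG00000024406.16, GRCm38 chr17:35506018-35510772, plus strand) had 1.93, 0.419 and 2.39 in Young and 2.74 and 20.4 in Aged, so the 2 groups did not overlap. The value of 2.74, in Aged 1, was below the 95th percentile of the receptor genes in that library (10.7). It was at 0 and 15.5 in Aged + Unsorted, at 12.3, 0 and 0 in Aged + LRP1high, and at 12.5 and 7.65 in Aged + LRP1low. The 2 Aged + LRP1low values were above the 95th percentile of the receptor genes in those libraries. The locus overlaps the antisense gene Gm19553, and whether counting used strand is not known here. Of 5 partners of POU5F1 in pluripotent cells, Esrrb reached 36.3 to 109 FPKM in 5 oocyte libraries, Zfp42 did not exceed 5.51 in any oocyte library, and Nanog was at most 0.123 in the 8 marker-rich ones. In these marker-rich libraries Sox2 reached 16.2 FPKM (median 0.431) and Klf4 6.65 FPKM (median 0.175).

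**Figure D3:**
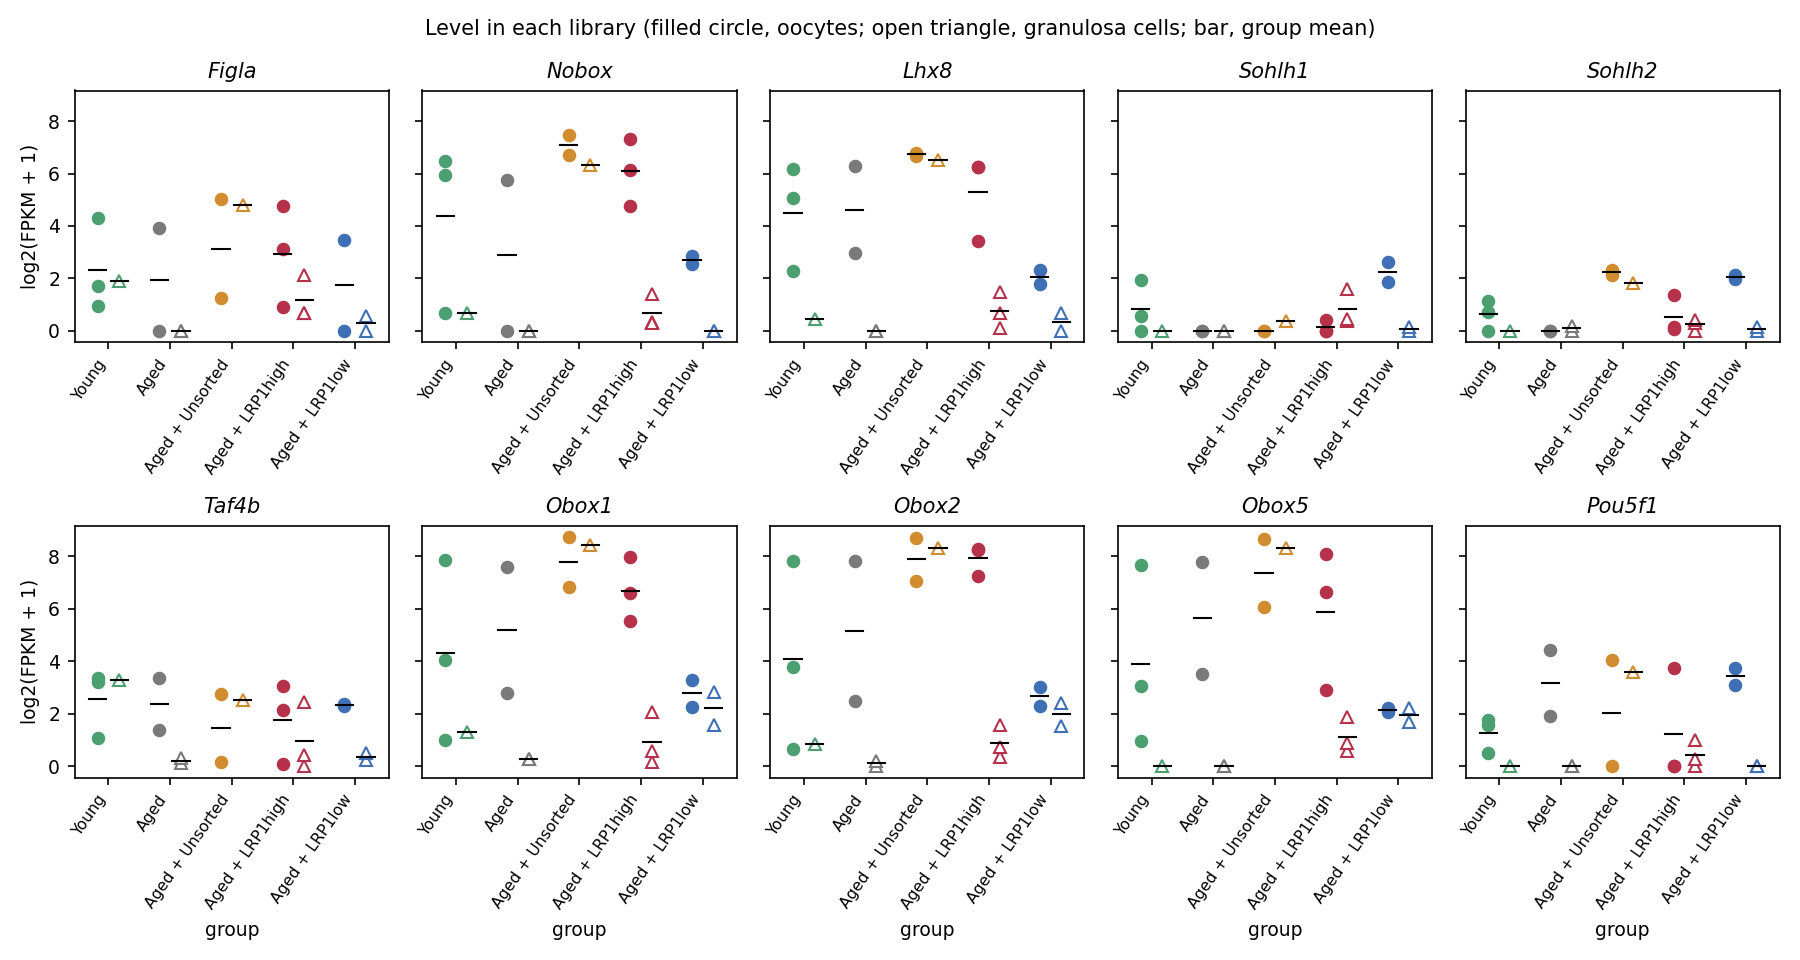
Level of each gene as log2(FPKM + 1) by group. Filled circles are oocyte libraries, open triangles granulosa cell libraries and bars group means. Libraries of the Young and Aged oocyte groups are far apart for Nobox, Lhx8 and the Obox genes, and granulosa cells are low for these genes except in Aged + Unsorted. Taf4b is higher in granulosa library Young 1 (8.87 FPKM) than in that of Aged + Unsorted (4.76 FPKM).

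The 5 genes of the upper set followed the oocyte markers. Over the 12 oocyte libraries, the log2 level correlated with the mean log2 level of the 10 markers at 0.963 for Obox2, 0.956 for Obox1, 0.935 for Lhx8, 0.912 for Nobox and 0.896 for Obox5. Figla (0.275), Taf4b (0.236), Sohlh2 (-0.02) and Pou5f1 (-0.05) had values near or below 0.3 over these 12 libraries, and Sohlh1 ran opposite (-0.78). Over the 8 marker-rich libraries alone the values were 0.802, 0.829, 0.726, 0.505 and 0.918 in the order given for the upper set, and 0.448 for Figla, 0.0771 for Taf4b, 0.578 for Sohlh2, 0.549 for Pou5f1 and -0.10 for Sohlh1. Within the marker-rich libraries Sohlh2 and Pou5f1 were thus as close to the markers as Nobox, so that the upper and the lower set did not separate there. The points share their libraries, whose fragments the FPKM divides by, and are given as a description. In the 8 marker-rich libraries Nobox was at least 26.3, Lhx8 at least 9.87 and Obox2 at least 12.7, and in the 4 marker-poor ones at most 6.21, 6.80 and 7.19. Obox1 separated likewise (at least 15.6 against at most 8.83), and Obox5 did not, with 6.50 as its lowest marker-rich and 10.3 as its highest marker-poor value.

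**Figure D4:**
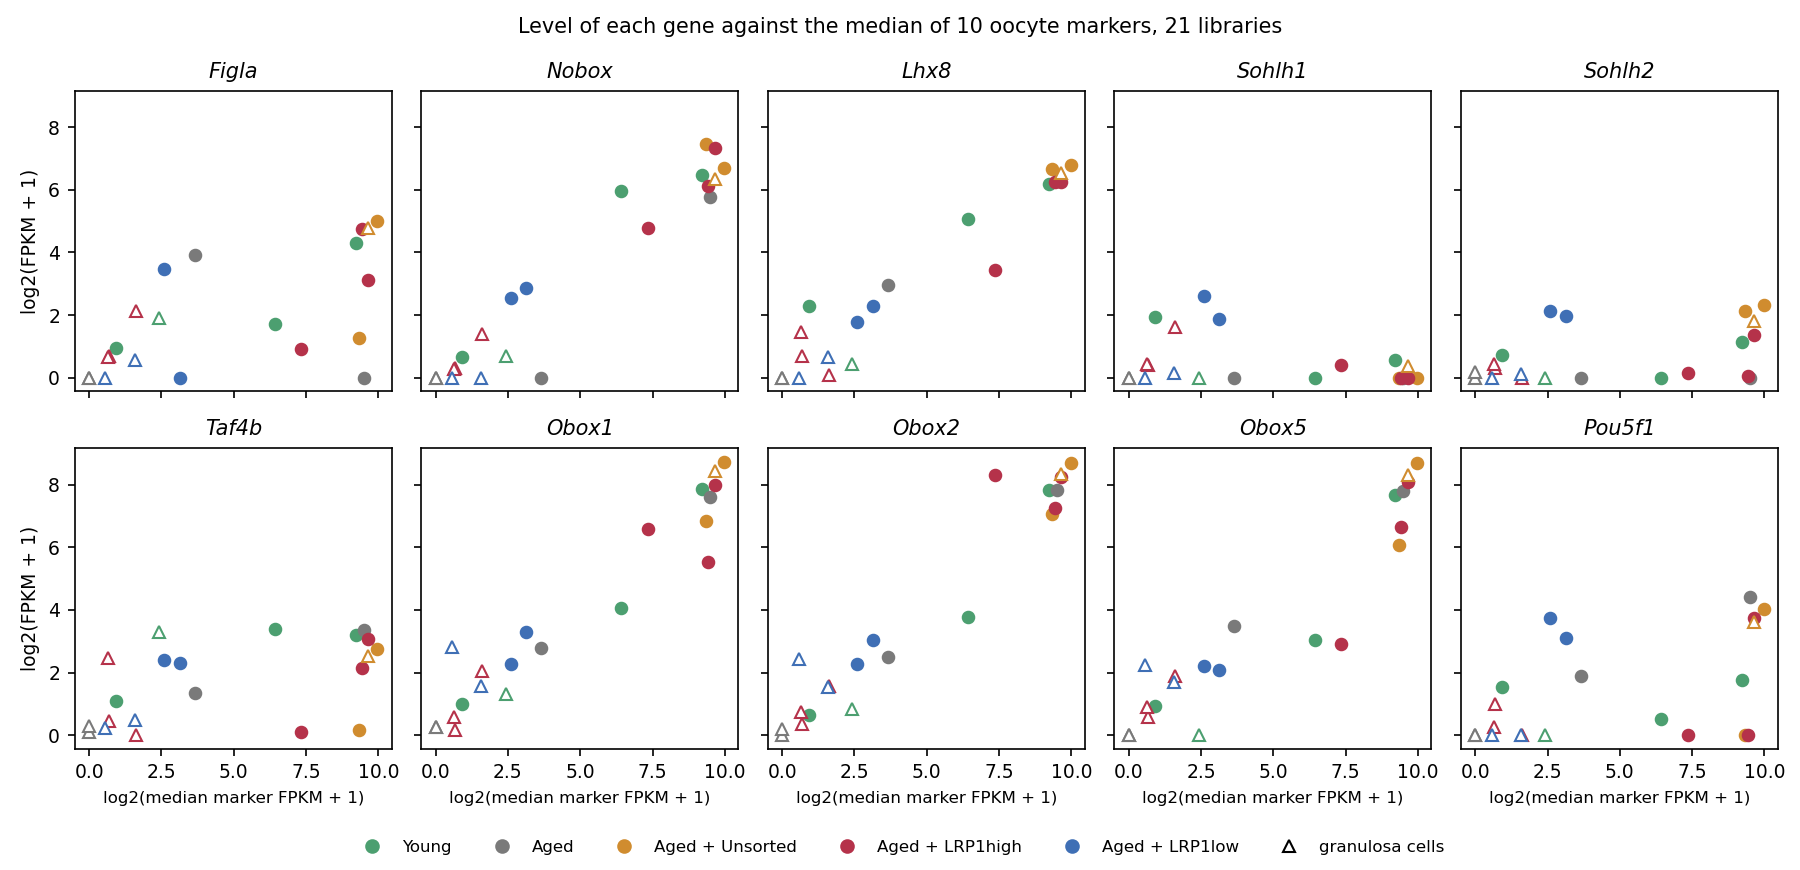
Level of each gene as log2(FPKM + 1) against log2(median FPKM of 10 oocyte markers + 1), a point per library, with groups by colour and granulosa cells as open triangles. Nobox, Lhx8, Obox1, Obox2 and Obox5 rise with the markers, Sohlh1 is above 1 FPKM only at low marker levels, and Figla, Taf4b and Pou5f1 scatter.

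Among 4066 genes with a mean of at least 10 FPKM in oocytes, those closest in pattern over the 12 oocyte libraries were Pak1ip1 (0.996) and Gm38025 (0.987) for Obox2, Slbp (0.989) and Zp2 (0.982) for Obox1, and Dcun1d5 and Nlrp4b (both 0.980) for Obox5. Slbp encodes the stem-loop binding protein of histone mRNA and Zp2 a zona pellucida protein. For Lhx8 they were Ddx3x (0.986), an RNA helicase gene, and Birc5 (0.985), the gene of survivin, and for Nobox Ppm1b (0.976), a phosphatase gene, and Eloc (0.972). The closest genes were less close for Taf4b (Rnf14, 0.954, and Dars, 0.920), Pou5f1 (Tecr, 0.911, and Snrpc, 0.893), Figla (Gm49755, 0.896, and Rpl22, 0.886) and Sohlh2 (Ccdc107, 0.864, and Sdha, 0.841). Sohlh1 was below the level at which this was computed.

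To ask whether age or transplantation changed the 10 genes, log2(FPKM + 1) was tested with limma across every gene whose mean FPKM reached 1. Calls needed a change of more than 1.5-fold together with a Benjamini-Hochberg adjusted p under 0.05. Fold changes on this scale understate those of low genes. Of the 10 genes, 9 passed the filter in oocytes and 8 in granulosa cells and in the joint fit. Sohlh1 did not pass in any of them and Sohlh2 only in oocytes, and in granulosa cells 4 of the 8, Figla, Nobox, Lhx8 and Pou5f1, passed only through the library of Aged + Unsorted. The comparisons of transplanted groups share the same 2 Aged libraries.

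Between Aged and Young oocytes, 0 of the 9 tested genes were called, against 27 of 28004 genes (0.0964%), and 0 passed at an unadjusted p under 0.05, against 8.65% of all genes. The changes ran from -1.49 for Nobox (standard error 1.84, 95% interval -5.54 to 2.57) to 1.89 for Pou5f1 (standard error 1.39, interval -1.17 to 4.95), with limma adjusted p of 0.693 and 0.547. The median was 0.11 for the 9 genes and 0.94 for all genes. The intervals allow large differences either way, and for Nobox the direction turned with 1 library: without Aged 2 the change was -4.36, and without Aged 1 it was 1.39. Without the marker-poor libraries, which leaves Aged 2 as the only Aged library, 0 of 9 were called, against 7.58% of all genes.

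Aged + Unsorted against Aged oocytes gave 0 called genes of 9, with 0% of 28004 genes called by limma. At an unadjusted p under 0.05 only Sohlh2 passed, 1 of 9 against 8.74% of all genes. Sohlh2 was higher by 2.22 (standard error 0.71, limma adjusted p = 0.230), from 0 in both Aged libraries. Nobox differed by 4.21 (standard error 2.02, limma adjusted p = 0.436) and Pou5f1 by -1.14 (standard error 1.52, limma adjusted p = 0.679), with groups that overlapped for Pou5f1. The median over the 9 genes was 2.11, and -0.86 over all genes. Without Aged 2, which leaves the marker-poor library as the Aged group and assumes that it varies like the other groups, Nobox (7.08, limma adjusted p = 0.0368) and Sohlh2 (2.22, limma adjusted p = 0.0341) were called, 2 of 10 tested against 36.9% of all genes.

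Aged + LRP1high against Aged oocytes likewise gave 0 called of 9, against 216 of 28004 genes (0.771%), and 0 at an unadjusted p under 0.05, against 10.9%. Nobox differed by 3.20 (standard error 1.84, limma adjusted p = 0.370), Obox2 by 2.77 (standard error 1.87, limma adjusted p = 0.391) and Pou5f1 by -1.92 (standard error 1.39, limma adjusted p = 0.413). The 9 genes had a median of 0.69, against -1.05 for all genes. Leaving out Aged 2 gave 1 call of 10 tested, Nobox at 6.08 (limma adjusted p = 0.0491), against 39.5% of all genes, and leaving out Aged 1 brought Nobox to 0.32. Without the marker-poor libraries, again against the single library Aged 2, Nobox was 0.32, Obox2 0.11 and Pou5f1 -3.18, with 0 of 9 called against 7.85% of all genes.

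For Aged + LRP1low against Aged oocytes, 0 of 9 were called, against 887 genes (3.17%), and 1 passed at an unadjusted p under 0.05, against 14.1%. It was Sohlh2, higher by 2.05 (standard error 0.71, limma adjusted p = 0.174). Obox5 showed the widest difference, -3.51 (standard error 2.22, limma adjusted p = 0.549), and both of its Aged + LRP1low values lay below both Aged values. The median over the 9 genes was -0.22 and over all genes 0.68. With no filter on low values, Sohlh1 (2.24, limma adjusted p = 0.0200) and Sohlh2 (2.05, limma adjusted p = 0.0168) were called, 2 of 10 against 21.8% of all genes. Both Aged + LRP1low libraries are marker-poor, with the receptor gene signal given above, and its part in these values was not tested.

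Aged + LRP1high against Aged + LRP1low oocytes was the contrast with the most genes called, 7291 of 28004 (26.0%), of which 6951 were lower in Aged + LRP1high. None of the 9 was called, and 3 passed at an unadjusted p under 0.05, against 49.1% of all genes. Obox2 was higher by 5.27 (standard error 1.87, limma adjusted p = 0.0561), Lhx8 by 3.27 (standard error 1.31, limma adjusted p = 0.0743), and Sohlh2 lower, with a change of -1.53 (standard error 0.65, limma adjusted p = 0.0850). Obox1 (3.92, standard error 1.83), Obox5 (3.75, standard error 2.03) and Nobox (3.38, standard error 1.84) had limma adjusted p of 0.110, 0.156 and 0.157. All libraries of Aged + LRP1high were above both of Aged + LRP1low for these 5 genes. The median over the 9 genes was 3.27, and over all genes -1.89. When each library was centred on the oocyte markers, the 5 differences turned negative, from -0.63 for Obox2 to -2.63 for Lhx8. On the log2(FPKM + 1) scale they were thus smaller than the mean difference of the markers. The same centring called 23168 of 28004 genes, all lower in Aged + LRP1high. In Aged + LRP1low the 5 genes were at most 8.83 FPKM, beside receptor gene percentiles of 5.67 and 6.33. The part of this background in the centred values was not tested. The summed oocyte marker FPKM was 3507 to 9246 in Aged + LRP1high and 53.0 and 166 in Aged + LRP1low, and no comparison of these groups without the marker-poor libraries is possible, since both Aged + LRP1low libraries are among them.

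In granulosa cells most of the genes were low. Outside the library of Aged + Unsorted, Nobox was 0 to 1.65, Lhx8 0 to 1.78, Obox2 0 to 4.37 and Pou5f1 0 to 0.980. In Aged granulosa cells Nobox, Lhx8, Figla, Sohlh1, Obox5 and Pou5f1 were listed at 0 in both libraries. These libraries had only 2734 and 2089 genes at an FPKM of at least 1, against 4842 to 21463 in the other granulosa libraries. The granulosa marker Inha was also at 0 in both, so a value of 0 there does not show absence of a gene. The same libraries are the reference of the granulosa comparisons and of the interactions below. Taf4b was higher in some libraries, with 8.87 in Young 1 and 4.48 in Aged + LRP1high 3, the 2 granulosa libraries with the highest granulosa markers, and at most 0.413 in the other 6 outside Aged + Unsorted. The Obox genes were higher in both Aged + LRP1low libraries (Obox1 6.04 and 2.00, Obox2 4.37 and 1.89, Obox5 3.71 and 2.23) than in both Aged libraries (at most 0.203), and above the 95th percentile of the receptor genes in both (1.84 and 1.14).

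Aged + LRP1low against Aged granulosa cells gave 0 called genes of 8, with 0% of 13002 genes called, and 3 of 8 at an unadjusted p under 0.05, against 3.79%. The 3 were Obox5 (1.96, standard error 0.55), Obox1 (1.93, standard error 0.77) and Obox2 (1.88, standard error 0.57), each with a limma adjusted p of 0.904. Their sequences overlap, so they are not 3 separate observations. The summed oocyte marker FPKM was 19.5 and 41.9 in these Aged + LRP1low libraries and 1.18 and 0.681 in Aged, with 4 and 0 against 6 and 6 of the 10 markers at 0, and the part of oocyte RNA in the difference was not tested. Aged + LRP1high against Aged gave 0 called of 8 (0% of all genes called) and 0 at an unadjusted p under 0.05, against 8.51%. Figla had the largest change, 1.17 (standard error 0.57, limma adjusted p = 0.458), and Pou5f1 the smallest, 0.42 (standard error 0.41, limma adjusted p = 0.537). Both genes passed the filter only through the library of Aged + Unsorted. The median over the 8 genes was 0.31 for Aged + LRP1low and 0.75 for Aged + LRP1high, and over all genes 0.31 and 0.89.

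Oocytes were then compared with granulosa cells, as the mean over the 5 groups of each. Nobox, Lhx8 and Obox2 were called higher in oocytes, 3 of 8 tested genes against 654 of 21767 (3.00%), of which 634 were higher in oocytes. The genes were chosen as oocyte regulators, and the filter was a mean over both cell types, which high oocyte values alone can pass. Median FPKM in granulosa cells was 0.212 for Nobox, 0.358 for Lhx8 and 0.802 for Obox2. Shares of called genes in this comparison are therefore a description only. Lhx8 differed by 3.03 (standard error 0.58, limma adjusted p = 0.0237), Nobox by 3.08 (standard error 0.79, limma adjusted p = 0.0445) and Obox2 by 3.12 (standard error 0.80, limma adjusted p = 0.0462). At an unadjusted p under 0.05, 6 of 8 passed, against 21.4% of all genes, adding Obox1 (2.72, standard error 0.80), Obox5 (2.71, standard error 0.87) and Pou5f1 (1.42, standard error 0.61), with limma adjusted p of 0.0704, 0.0936 and 0.193. Figla (0.79, standard error 0.74, limma adjusted p = 0.476) and Taf4b (0.62, standard error 0.54, limma adjusted p = 0.446) did not pass. The median of the 8 genes was 2.72, and 0.62 for all genes.

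These differences included the granulosa library of Aged + Unsorted, which held Obox1 at 346, Obox2 at 319, Obox5 at 315, Lhx8 at 90.9, Nobox at 79.8, Figla at 26.6 and Pou5f1 at 11.1 FPKM, all within the range of the oocyte libraries. Without the Aged + Unsorted groups, 6 of 8 genes were called, against 2407 of 23954 genes in all: Obox2 at 4.003, Lhx8 at 3.74, Nobox at 3.67, Obox5 at 3.62, Obox1 at 3.57 and Pou5f1 at 2.17. In the Aged + LRP1high groups alone, with 3 libraries of each cell type, 5 of 8 (Nobox, Lhx8, Obox1, Obox2 and Obox5) were called, against 12.7%, and Obox2 differed by 7.05 (standard error 0.94, limma adjusted p = 0.000129). Without the marker-poor oocyte libraries and the Aged + Unsorted and Aged + LRP1low groups, Nobox, Lhx8, Obox1, Obox2 and Obox5 were called, against 18.0% of all genes, from 5.34 for Lhx8 to 6.57 for Obox2. The calls were lost without either Aged granulosa library (0 of 9 members tested), where 0% of all genes were called, and without either Aged + LRP1low oocyte library (0 of 8), where 0% and 0.335% were. The same happened without granulosa library Aged + LRP1low 1 (0 of 9, against 0.166%). The differences themselves changed less, and over all fits that left out 1 library were 2.51 to 3.66 for Nobox, 2.70 to 3.37 for Lhx8 and 2.58 to 3.65 for Obox2.

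**Figure D5:**
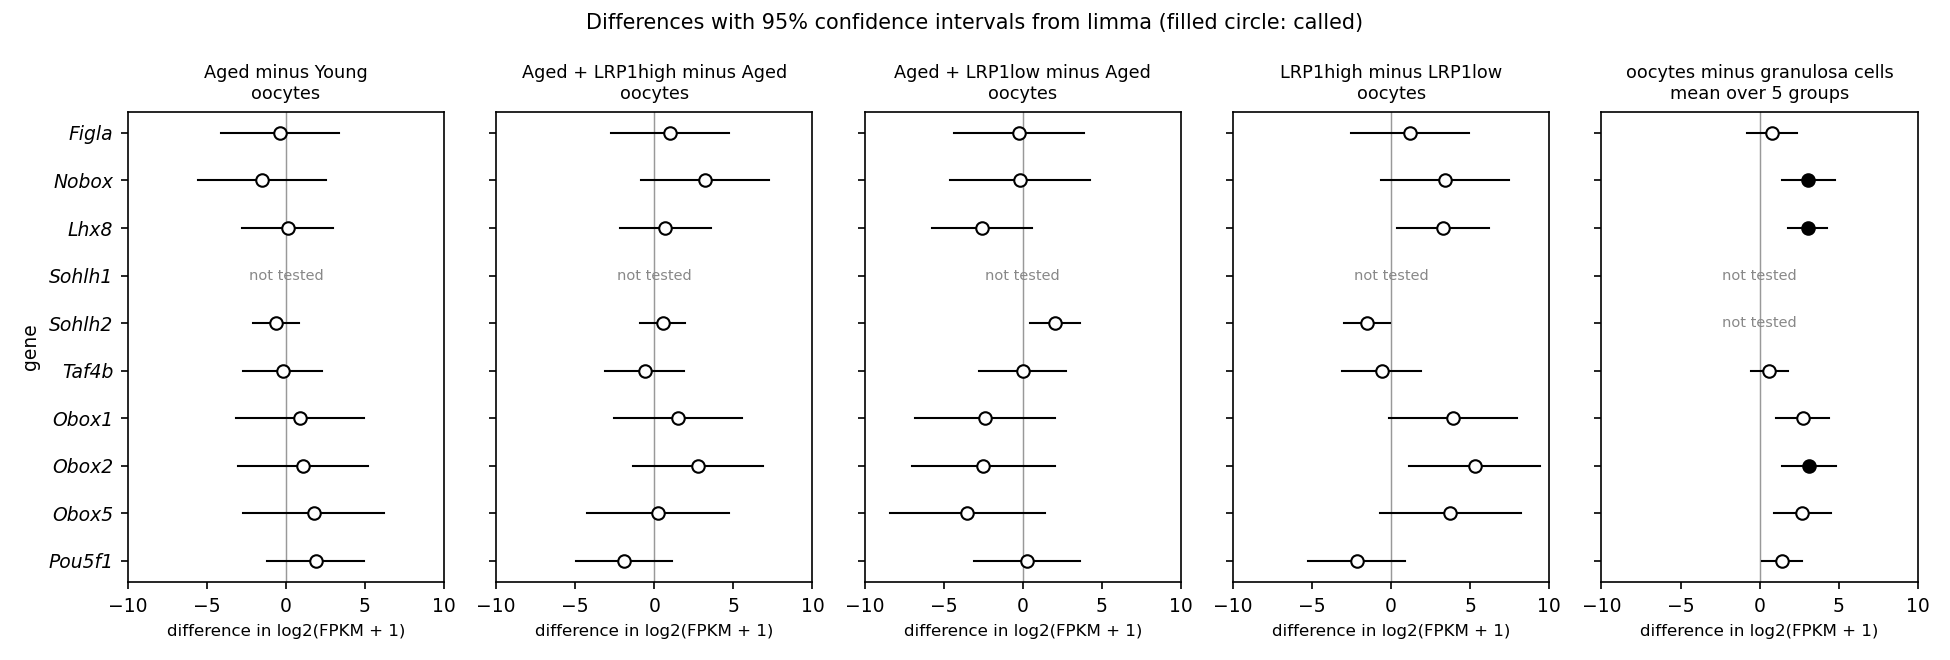
Difference in log2(FPKM + 1) of each gene with its 95% confidence interval from limma in 5 comparisons. Filled circles were called, and genes below the filter are marked as not tested. Intervals in the 4 oocyte comparisons span several log2 units, and the 3 filled circles (Nobox, Lhx8 and Obox2) are in the comparison of cell types.

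Whether transplantation acted differently on the 2 cell types was tested as an interaction. For Aged + LRP1high against Aged, 0 of 8 genes were called (0% of 21767) and 0 passed at an unadjusted p under 0.05, against 16.0%. The change of Nobox in oocytes exceeded that in granulosa cells by 2.53 (standard error 2.16, limma adjusted p = 0.468), and that of Pou5f1 fell short by -2.33 (standard error 1.67, limma adjusted p = 0.390). For Aged + LRP1low against Aged, again 0 of 8 were called (0%) and 0 passed at an unadjusted p under 0.05, against 6.41%. Obox5, lower than Aged in both oocyte libraries and higher in both granulosa libraries, had a difference of -5.47 (standard error 2.61, limma adjusted p = 0.779), and Pou5f1 one of 0.27 (standard error 1.83, limma adjusted p = 0.986).

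Other genes of the same programme were examined by lists. Of 10 genes known to lie downstream of FIGLA, NOBOX, SOHLH1 or LHX8 (Zp1, Zp2, Zp3, Gdf9, Bmp15, Oosp1, Mos, Zar1, H1foo and Rfpl4), all 10 were tested, and 0 were called in Aged against Young (median 1.15) and in each transplanted group against Aged (medians 2.85, 2.28 and -3.85 for Aged + Unsorted, Aged + LRP1high and Aged + LRP1low). The shares of all genes called there were 0.0964%, 0%, 0.771% and 3.17%. In Aged + LRP1high against Aged + LRP1low oocytes 5 were called higher, with a median of 5.96. Of all 28004 genes 340 were called higher there, and 26.0% in either direction. Bmp15, a growth factor of the oocyte, was at 7.97 and Zar1, a maternal RNA-binding factor, at 5.66. In oocytes against granulosa cells 7 were called higher (median 3.83), against 634 of 21767 genes called higher and 3.00% in either direction. Of these genes 7 are also in the oocyte marker list, of which 3 of 10 and 8 of 10 were called higher in the same 2 comparisons. The counts are thus not separate from the difference in oocyte markers between the libraries. Of 12 other regulators of transcription in oocytes, 11 were tested in oocytes, and only Foxo3 and Sall4 were called in any comparison, higher in Aged + LRP1high than in Aged + LRP1low (6.99 and 7.18) and higher in oocytes than in granulosa cells (3.47 and 3.93). They were 2 of 11 tested in the former, against 340 of 28004 genes called higher (26.0% called in either direction). In the latter they were 2 of 10, against 634 of 21767 called higher (3.00% in either direction). Foxo3, which holds primordial follicles dormant, reached 1233 FPKM and Sall4, a zinc finger factor of germ cells, 3421 FPKM in Aged + LRP1high 3, where Obox5 and Lhx8 were at 6.50 and 9.87. Of the 5 partners of POU5F1, 4 were tested in oocytes, and Nanog was called lower in Aged + LRP1high than in Aged + LRP1low, at -3.05, with 9.31 and 6.22 FPKM in the 2 Aged + LRP1low libraries. In that comparison 26.0% of all genes were called, 6951 of 28004 of them lower in Aged + LRP1high. The 95th percentile of the receptor genes was 5.67 and 6.33 FPKM in Aged + LRP1low 1 and 2, so the Nanog call is not particular to this gene.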

How the data were processed

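Polyadenylated RNA of oocytes and granulosa cells was sequenced in 21 libraries. The authors aligned the reads with HISAT2 (2.2.1) and quantified them with StringTie (1.3.3b), per the labels, and deposited 1 table per library with coverage, FPKM and TPM for each gene. The deposited FPKM was used for all levels, the deposited TPM as an alternative scale, and the deposited coverage (a per-base signal) with FPKM to compute depth. Read counts were not used, so no count test or counting interval is given. The labels name the build mm9, but 54577 of 55335 identifiers match GENCODE vM21 (GRCm38) in version and coordinates, and GRCm38 is used here. Labels and methods name different library kits, so strandedness is not known. Rows that repeated a gene identifier were summed.

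The tests used limma (3.58.1, R 4.3.3) on log2(FPKM + 1) over genes whose mean FPKM reached 1, fitting the groups of each cell type in 1 model and both cell types in 1 model for the contrast of cell types. The fits were tested on simulated data. Groups came from the labels, which name no batch. The p-values measure the spread between libraries, which may be partly technical. The genes and lists were chosen with earlier results of these data known. All 10 genes are named with their level in every library, with the 2 genes of most similar pattern for the 9 whose mean FPKM over oocyte libraries reached 1. Which changes are printed for a comparison was chosen after the values were seen. Other pseudocounts, filters, scalings, models and sets of libraries were tried as alternatives. Deviations from group means of same-numbered libraries correlated at -0.436 to 0.441 over 21 oocyte pairs and at -0.0761 to 0.256 over 6 granulosa pairs (4 and 1 over 0.1). In groups of 2 the deviations mirror each other, so these pairs are not separate checks and cannot exclude a pairing. The labels do not name the animals, so numbers were not taken as pairs. Promoter sequences are from RefSeq (GRCm38.p6), and 9 of the 10 genes were searched. Promoter shares are over 32851 promoters of 250 bases.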

Additional observations from a re-analysis of the deposited data

Results flagged for a closer look

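The 2 granulosa cell groups with 1 library each entered no comparison between granulosa groups, and held 12 values of the 10 genes that were over 1 FPKM, above both Aged granulosa libraries and above the 95th percentile of receptor genes that the ovary should not express. In the Aged + Unsorted library these were Obox1 at 346, Obox2 at 319, Obox5 at 315, Lhx8 at 90.9, Nobox at 79.8, Figla at 26.6, Pou5f1 at 11.1, Taf4b at 4.76 and Sohlh2 at 2.50 FPKM. That library also held the oocyte markers at a median of 800 FPKM. Of 10 granulosa and cumulus cell markers it had 3 (Fshr, Amh and Hsd17b1) listed at 0, and their summed FPKM was 101. Amh was also listed at 0 in the Young library, where the sum was 2001. The flagged values of the Young library were Taf4b at 8.87, Figla at 2.74 and Obox1 at 1.49 FPKM, beside a granulosa marker median of 74.9 FPKM. With 1 library in each group these values have no replicate.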

How the results depend on the processing

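The comparison of cell types moved most. Its 3 called genes of 8 became 5 with a pseudocount of 0.1 (3.46% of all genes called) or with TPM (9.04%), 1 of 10 with no filter on low values (1.63%), and 0 with quantile normalization (1.39%) or with a trended and robust limma prior (0%), which left the median change at 2.72. They were 5 in the Aged + LRP1high groups alone, 6 without the Aged + Unsorted groups, and 5 without these, the Aged + LRP1low groups and the other marker-poor oocyte libraries (the last 2 settings were chosen after seeing the data). With the replicate number as a block, 0 were called (0.368% of all genes). Leaving out 1 library gave 0 to 5 calls here, 0 to 2 for Aged + Unsorted against Aged and 0 to 1 for Aged + LRP1high against Aged in oocytes. With no filter, 2 of 10 genes were called in Aged + LRP1low against Aged oocytes (21.8% of all genes), 2 of 10 in Aged + LRP1high against Aged + LRP1low (42.5%), and 1 of 10 (Sohlh2) in the LRP1low interaction (13.4%), and centring on oocyte markers gave 3 calls of 9 in Aged + LRP1high against Aged + LRP1low (82.7%). Centring turned the direction of Sohlh2 in Aged + Unsorted against Aged (-0.89), of Obox5 in Aged + LRP1low against Aged (0.036), and in Aged + LRP1high against Aged + LRP1low of Nobox (-2.52), Lhx8 (-2.63), Obox1 (-1.98), Obox2 (-0.63) and Obox5 (-2.16). Quantile normalization turned Sohlh2 in the last comparison (0.67) and Taf4b between cell types (-0.11). Leaving out 1 library turned Nobox in Aged against Young (-4.36 to 1.39), Pou5f1 in Aged + Unsorted against Aged (-3.16 to 0.88), Nobox in the LRP1high interaction (-0.34 to 5.41) and Pou5f1 in the LRP1low interaction (-0.99 to 1.53). The cause was not tested. Of 531 log2 changes under an alternative, 452 kept their direction and side of the threshold. Groups of 1 to 3 libraries and wide spread between them limit all comparisons.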
